A study of Schizosaccharomyces pombe with 6 samples.

Results

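The tRNA genes of fission yeast were examined for the position of CFP-Cnp1 ChIP-seq peaks and of peak edges. All genes annotated as tRNA on chromosomes I, II and III were taken, 171 of 12606 annotated genes, and none was dropped. They were grouped by distance to the midpoint of cnt, the central core of the centromere: 56 lay up to 50 kb from a midpoint (8 on chromosome I, 27 on II and 21 on III; 322 genes of all kinds lie there) and 115 lay beyond, on the arms (of 12284 genes). The peak lists played no part in this choice. 3 strains grown in rich medium (YES) were compared, and of these SUMO-KallR CFP-cnp1 and WT CFP-cnp1 carry the CENP-A histone Cnp1 fused to a fluorescent protein. In SUMO-KallR the lysines of SUMO are replaced by arginine, so that SUMO chains cannot form, while the third strain, untagged, has no tag and shows what the anti-GFP antibody recovers without its target. Each strain gave 1 ChIP library and 1 input library, with budding yeast Scc1-Pk cells mixed in as a calibrator. No strain has a replicate, so no difference between strains can be set against an experimental error, and all values below are descriptions of 3 peak lists with no test.

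tRNA genes are short genes transcribed by RNA polymerase III, whose factors bind promoter elements inside the gene, the A box and the B box. In fission yeast they cluster around the centromeres, where the CENP-A chromatin of the central domain meets the heterochromatin of the outer repeats, and tRNA genes at these borders are known to act as barriers to the spread of heterochromatin. Each centromere is built as an inverted repeat, so the tRNA genes left of cnt mostly have a copy right of it. The question here was whether called peaks covered the tRNA genes, and whether peak edges fell at them.

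The sequences below, read from the RefSeq genome ASM294v3, 5′ to 3′ on the annotated strand, show the tRNA genes that mark the inner centromere and its edges and how many places in the genome carry the same gene. Capitals mark the B box, searched for as GTTCNANNC on the annotated strand. It was found in 156 of 171 tRNA genes (91.2%) and in 1.22% of all 73 bp windows of the 3 chromosomes, read on 1 strand, 73 bp being the median length of a tRNA gene (range 71 to 102 bp). A match is a match of letters only, and SPATRNAALA.05 has none.
SPATRNAILE.03: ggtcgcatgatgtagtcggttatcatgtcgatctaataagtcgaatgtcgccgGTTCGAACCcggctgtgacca
SPCTRNAGLU.10: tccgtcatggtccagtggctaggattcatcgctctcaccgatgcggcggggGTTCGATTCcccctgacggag
SPBTRNAVAL.06: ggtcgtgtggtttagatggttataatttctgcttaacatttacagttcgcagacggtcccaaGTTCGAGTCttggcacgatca
SPATRNAALA.05: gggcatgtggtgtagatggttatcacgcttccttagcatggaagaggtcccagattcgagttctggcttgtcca
SPCTRNALEU.13: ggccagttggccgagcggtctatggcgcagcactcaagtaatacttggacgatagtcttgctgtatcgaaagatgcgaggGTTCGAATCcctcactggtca
SPATRNAARG.02: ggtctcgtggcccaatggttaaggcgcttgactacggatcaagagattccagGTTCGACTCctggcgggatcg
SPATRNAPHE.02: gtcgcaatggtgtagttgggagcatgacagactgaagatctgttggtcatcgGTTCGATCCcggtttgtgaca
SPATRNAILE.03 (chromosome I, 3768290 to 3768363, plus strand) is 1 of 6 identical copies, all of them in the centromeric group, and lies closest to cnt on the left of centromere I. SPCTRNAGLU.10 (III, 1097499 to 1097570, minus strand) is identical to SPATRNAGLU.03 and SPATRNAGLU.04, which stand at an edge of the untagged peaks on chromosome I, and has 6 copies in all. SPBTRNAVAL.06 (II, 1619174 to 1619256, minus strand) has 8 copies, among them SPATRNAVAL.04, the single tRNA gene of the arms under a WT peak. SPATRNAALA.05 (I, 3777192 to 3777265, plus strand) has 9 copies, 7 of them centromeric, and is the outermost tRNA gene on the right of centromere I. SPCTRNALEU.13 (III, 1102809 to 1102909, plus strand) has 4 copies and is the first tRNA gene to the right of cnt on III. SPATRNAARG.02 (I, 3736520 to 3736592, plus strand) has 8 copies and SPATRNAPHE.02 (I, 3752334 to 3752406, minus strand) has 4, and these are the outer tRNA genes of the left side of centromere I. Gene identity alone therefore does not tell at which of these places a tRNA gene lies. It does tell the group for SPATRNAILE.03 and SPCTRNALEU.13, whose copies are all centromeric. The annotation assigns 20 amino acids to the 171 genes, and for 5 genes with ASP in the ID its product is tRNA-Asn, so IDs are used here as names only.

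The 3 lists differ first of all in how much of the genome they call. The untagged list holds 961 peaks over 11.97 Mb (95.2% of the 3 chromosomes), the WT list 59 peaks over 0.141 Mb (1.12%) and the SUMO-KallR list 1615 peaks over 11.7 Mb (92.8%). The height of a peak, the deposited score divided by 10 and read as −log10(p), runs from 1.7 to 261.6 in untagged, from 1.8 to 4139.3 in WT and from 2.0 to 4789.1 in SUMO-KallR. It is compared within a list, apart from 2 height floors that were applied to all lists as alternative settings. A tRNA gene under a peak of the untagged or SUMO-KallR list is thus the rule for any sequence, and each share is given beside the share of all annotated genes or of all positions.

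In the centromeric group, at least 1 base of 49 of 56 tRNA genes lay under an untagged peak (87.5%), against 94.4% of all annotated genes of the same stretch. In WT it was 37 of 56 (66.1%), against 51.2% of all genes, and in SUMO-KallR 56 of 56, as of all genes there (100%). By bases, untagged peaks held 85.5% of the tRNA gene sequence and 82.4% of all sequence up to 50 kb, WT peaks 63.2% and 45.9%, and SUMO-KallR peaks 100% and 98.5%. In the WT list the tRNA genes were thus above the background by genes and by bases, and in untagged they were below it by genes. In a narrower band of 25 kb the WT shares were 87.8% of tRNA genes and 89.4% of all genes there, so the excess over all genes in WT was not seen closer to cnt.

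On the arms, 113 of 115 tRNA genes lay under an untagged peak (98.3%; all genes 98.4%), 1 of 115 under a WT peak (0.870%; all genes 0.114%) and 108 of 115 under a SUMO-KallR peak (93.9%; all genes 97.7%). Longer genes meet a peak with 1 base more easily than tRNA genes do. By bases, untagged peaks held 97.7% of the arm tRNA gene sequence and 95.5% of all arm sequence. For WT peaks it was 0.936% and 0.0255%, and for SUMO-KallR peaks 93.0% and 92.7%. Heights over the arm tRNA genes ran from 7.2 to 32.8, median 20.5, in the untagged list, and from 4.0 to 76.1, median 18.7, in the SUMO-KallR list, the highest of these being a wide peak over SPATRNAVAL.04 and 2 neighbours, SPATRNACYS.03 and SPATRNAPHE.01. 107 arm tRNA genes (93.0%) were under both an untagged and a SUMO-KallR peak and not under a WT peak. The share of all arm genes with this combination was not counted. Taken singly, the untagged and SUMO-KallR lists met 98.4% and 97.7% of all arm genes and WT 0.114%, so the combination is the rule there.

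**Figure D1:**
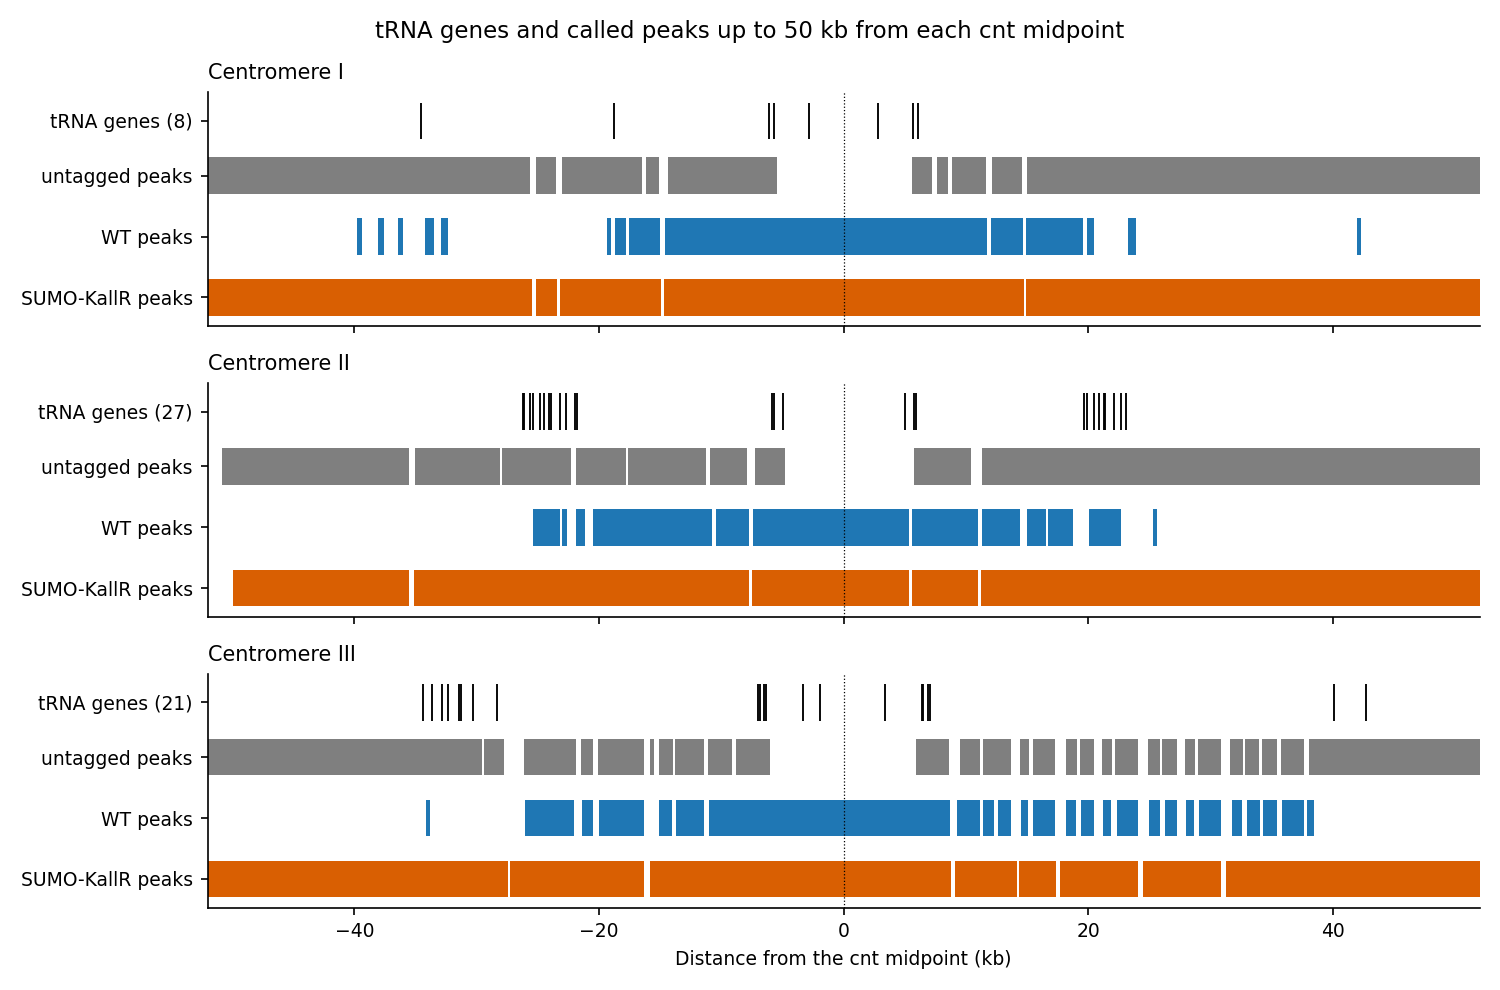
Called peaks (bars) of the 3 lists and tRNA genes (black ticks) against the distance from the cnt midpoint of each centromere in kb. The untagged list is empty around each midpoint, where the WT and SUMO-KallR lists have their highest peaks, and the tRNA genes stand in groups at about the edges of that empty stretch and farther out.

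The inner edges of the untagged peaks lay at tRNA genes on both sides of all 3 centromeres. Around each cnt midpoint the untagged list had a gap without any peak, of 11034 bp on chromosome I, 10559 bp on II and 11925 bp on III. All 6 ends of these gaps lay within 500 bp of a tRNA gene, whereas 12.1% of all positions up to 50 kb from a midpoint do. The ends lay 4.815 to 5.986 kb from the midpoints, and the share of positions at that distance was not counted. They are among the 8 of 88 untagged edges up to 50 kb with a tRNA gene that near (9.09%). The genes at these ends were picked after their values were seen. The untagged peaks that end there are mostly of ordinary height for that list (median 18.1): 121.4 and 23.6 left and right on I, 13.8 and 23.8 on II, and 22.5 and 21.2 on III. 5 of the 6 fall below 48.3, the 95th percentile of the untagged heights, and with peaks under that height left out 1.79% of the centromeric tRNA genes had an untagged edge near. On I the left end lay 221 bp from SPATRNAGLU.03 and the right end 7 bp from SPATRNAGLU.04, which are identical in sequence. On II the left end lay 137 bp from SPBTRNAVAL.06 and the right end lay inside SPBTRNAALA.10, with 23 of its 74 bases under the next peak. On III the left end lay 357 bp from SPCTRNATHR.08 and the right end 403 bp from SPCTRNATHR.09. The 2 sides of a centromere are copies of each other, so these are fewer than 6 independent places, and reads from the 2 copies cannot be told apart.

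6 tRNA genes lay wholly inside these gaps: SPATRNAILE.03 and SPATRNAILE.04 at 2.81 kb on either side of the midpoint of I, SPBTRNAVAL.07 at 4.99 kb on II, and SPCTRNAGLU.10 at 1.96 kb and SPCTRNALEU.12 and SPCTRNALEU.13 at 3.36 kb on III. They were under WT and SUMO-KallR peaks and under no untagged peak. The 7th centromeric tRNA gene outside the untagged peaks was SPBTRNAARG.06, 22.0 kb left of the midpoint of II, in an untagged gap of 439 bp and 36 bp from a WT edge, under a SUMO-KallR peak only.

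The CFP-Cnp1 peak over cnt did not end at these tRNA genes, with 1 exception. In WT the peak of chromosome I (3756509 to 3782866, height 4139.3) began 14.6 kb left and ended 11.7 kb right of the midpoint. It took in SPATRNAALA.04, SPATRNAGLU.03 and SPATRNAILE.03 on the left and SPATRNAILE.04, SPATRNAGLU.04 and SPATRNAALA.05 on the right. Its ends were 4103 bp from SPATRNAPHE.02 and 5601 bp from SPATRNAALA.05. In SUMO-KallR the same peak (3756470 to 3785857, height 4371.2) held the same 6 tRNA genes, with ends 4064 bp from SPATRNAPHE.02 and 8592 bp from SPATRNAALA.05. The left ends of the 2 strains lay 39 bp apart, while on the right the SUMO-KallR peak reached 14.7 kb from the midpoint. On that side WT had a separate peak from 12.022 to 14.699 kb (height 57.5). No replicate shows how far such an end moves from library to library.

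On chromosome III the WT peak (1088456 to 1108211, height 4098.7) held 11 tRNA genes, from SPCTRNAASP.06 on the left, 3981 bp from its start, to SPCTRNAASP.07 on the right, 1654 bp from its end. The SUMO-KallR peak (1083629 to 1108275, height 4789.1) held the same 11, with its left end 8808 bp from SPCTRNAASP.06 and its right end 1718 bp from SPCTRNAASP.07. On chromosome II the WT peak (1616783 to 1629563, height 3709.0) held SPBTRNAILE.06, SPBTRNAALA.09 and SPBTRNAVAL.06 on the left, where it ended 1510 bp beyond SPBTRNAILE.06. On the right it held only SPBTRNAVAL.07. Untagged peaks had edges near most of these WT ends. In kb from the midpoint (negative is left), they lay at -14.366 (WT -14.627) and 11.617 (WT 11.73) on I. On the left of II the untagged edge lay at -7.27 (WT -7.425), and on III at -11.089 (WT -11.041) and 8.596 (WT 8.714). Beyond the inner tRNA genes the WT cnt peaks thus ran over stretches that the untagged list also called. The part of shared background there was not tested.

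That right end on II was the exception. The WT peak stopped 322 bp after SPBTRNAVAL.07, and the next WT peak (1629794 to 1635172, height 287.3) began 108 bp before SPBTRNAALA.10 and took in SPBTRNAALA.10 and SPBTRNAILE.07. The SUMO-KallR list had the same break between the same genes: the peak over cnt ended at 1629590, 312 bp from SPBTRNAALA.10, and the next began at 1629758, 144 bp from it, with a height of 590.7. On the left of II, where copies of the same 3 tRNA genes lie, neither list had a break. Between the 2 strains 4 of the 6 ends of the cnt peaks lay 27 to 64 bp apart, and the right end on I and the left end on III lay 2991 and 4827 bp farther out in SUMO-KallR. WT had separate peaks in these stretches, at 12.022 to 14.699 kb on I and at -15.068 to -13.993 and -13.726 to -11.401 kb on III (negative is left). The untagged list had peaks there as well. How much of the difference is the joining of neighbouring peaks was not tested. The break on II is shorter than 500 bp in both strains, and its sides are sequences with a copy on the other side of cnt.

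**Figure D2:**
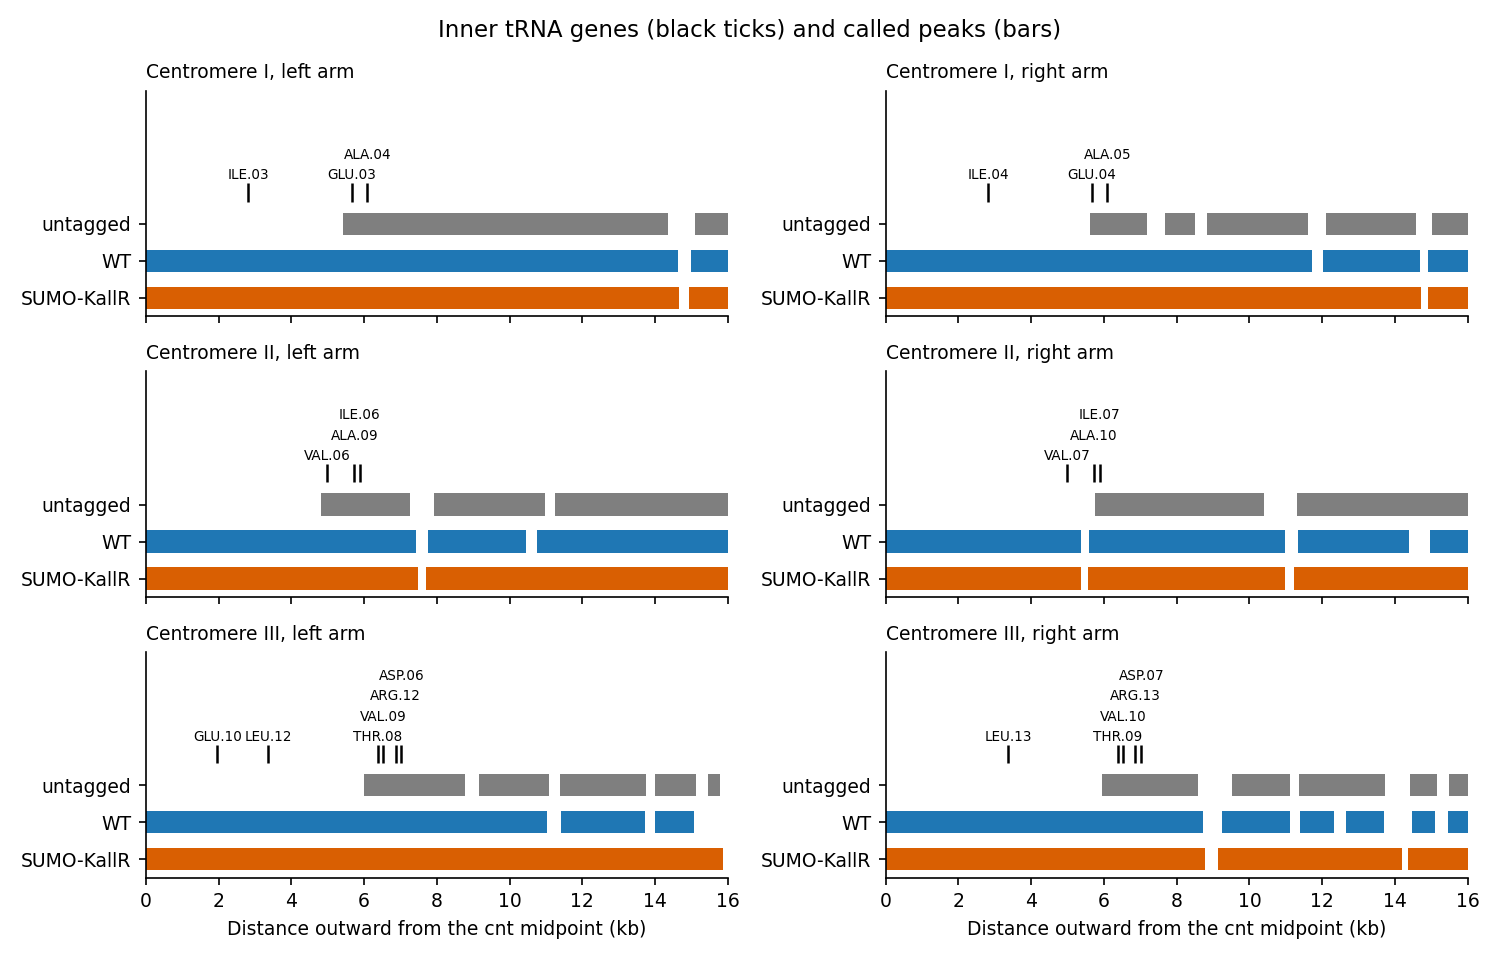
The inner 16 kb of each side of the 3 centromeres, with distance outward from the cnt midpoint in kb, tRNA genes as labelled ticks (the part of the ID after TRNA) and called peaks as bars. The untagged bars begin at a tRNA gene group on all 6 sides, while the WT and SUMO-KallR bars run past these genes, except for the break between VAL.07 and ALA.10 on the right of II.

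Over the whole centromeric group, tRNA genes had a peak edge near about as often as any window in the untagged and SUMO-KallR lists, and at a higher share in WT. An edge lay at most 500 bp away for 12 of 56 tRNA genes in untagged (21.4%) and for 22.4% of all 73 bp windows there. In SUMO-KallR it did for 3 of 56 (5.36%) against 7.01%. In WT it did for 19 of 56 (33.9%; exact 95% binomial interval 21.8% to 47.8%, as if genes were independent) against 25% of windows, which lies inside that interval. With clusters of tRNA genes less than 1 kb apart counted once, the untagged share became 7 of 19 (36.8%). A cluster counts as near if any of its genes is, and it can be far wider than a window, so the windows are no like background for it. The median distance from tRNA gene to edge was 1754.5 bp in untagged (windows 2735 bp), 1207 bp in WT (2564 bp) and 8965 bp in SUMO-KallR (6402 bp). An edge fell inside 1 of 56 tRNA genes in untagged, inside 2 in WT and inside none in SUMO-KallR. Read from the edges, 8 of 88 untagged edges (9.09%), 14 of 102 WT edges (13.7%) and 2 of 31 SUMO-KallR edges (6.45%) had a tRNA gene within 500 bp, against 12.1% of positions. The WT edges near tRNA genes were mostly on chromosome II, where 15 of 27 genes had one and 17.9% of windows. On I 2 of 8 genes had one (windows 19.4%), and on III 2 of 21 (windows 37.7%), so that the order of tRNA genes and windows differed between the chromosomes.

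**Figure D3:**
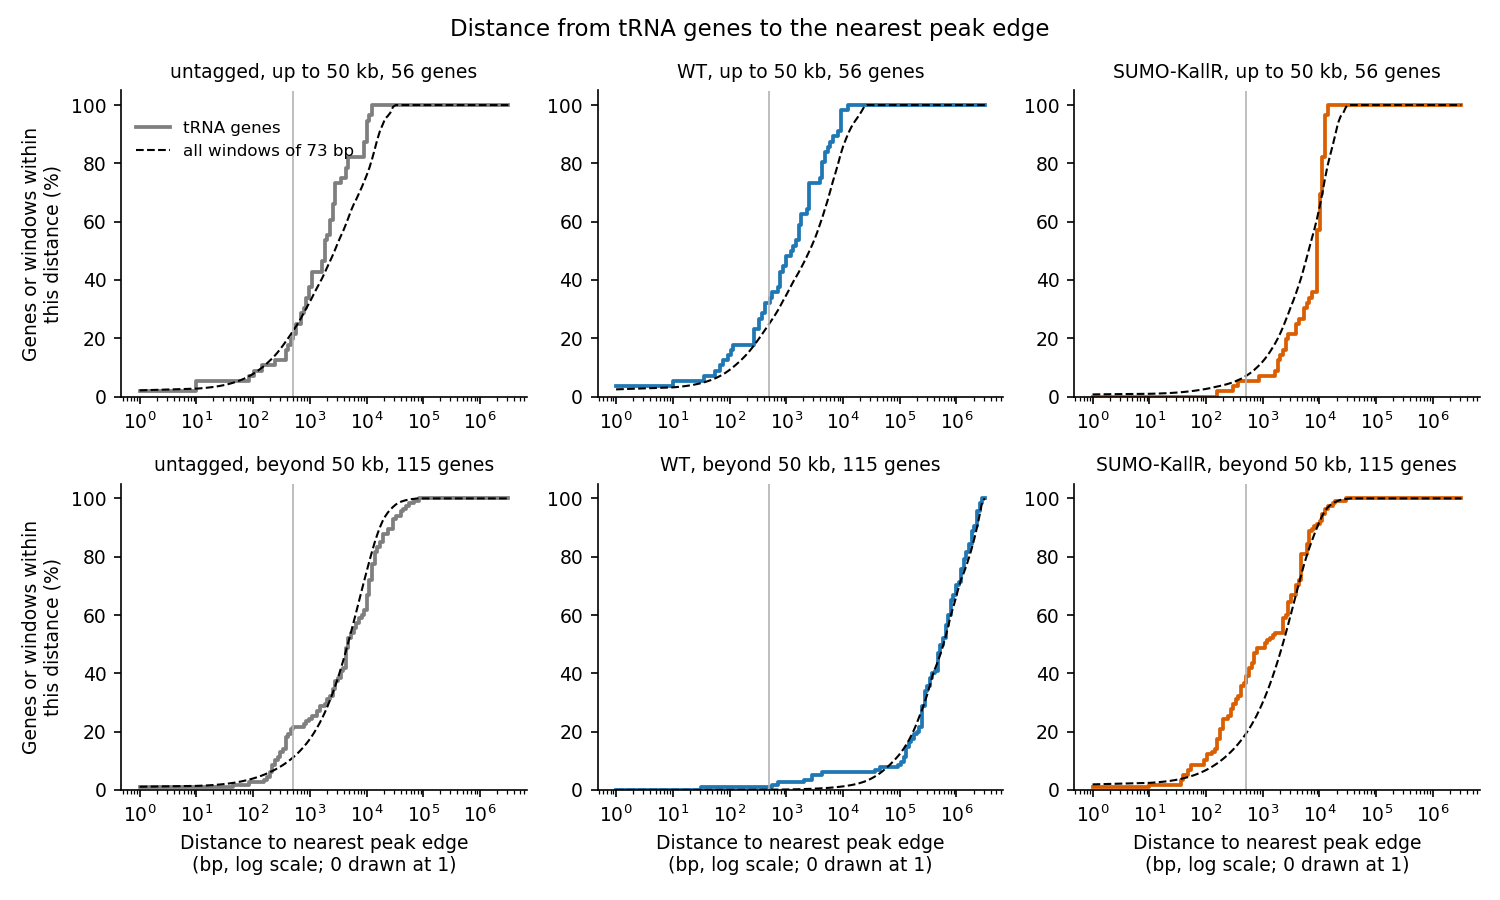
Share of tRNA genes (coloured steps) and of all 73 bp windows (dashed) with a peak edge within the distance on the x axis (bp, log scale), for the 3 lists up to 50 kb (top) and beyond 50 kb (bottom); the grey line marks 500 bp. At 500 bp the lines of tRNA genes and windows are close in the centromeric untagged and SUMO-KallR panels, and the tRNA line is higher on the arms for untagged (21.7% against 11.1%) and SUMO-KallR (38.3% against 19.2%); below about 200 bp the untagged arm line is not above the windows (2.61% against 3.92% at 100 bp).

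Apart from the right end of the cnt peak on II, the WT edges at tRNA genes belonged to a handful of peaks outside the peaks over cnt. On the left of centromere II the WT peak at 1598839 to 1601034 (height 267.0) covered a row of tRNA genes. It began inside SPBTRNALEU.06, of whose 101 bases 7 were covered, ran over SPBTRNAGLY.07 (498 bp from the edge), SPBTRNALYS.07, SPBTRNAILE.05 and SPBTRNAALA.08, and ended inside SPBTRNAVAL.05, of whose 83 bases 68 were covered. SPBTRNATYR.02 lay 245 bp outside its start. A low peak at 1601198 to 1601628 (height 5.9) covered SPBTRNAGLU.06, which lay 66 bp inside its end. The next, at 1602296 to 1603075 (height 118.7), began 36 bp past SPBTRNAARG.06 and 51 bp before SPBTRNAASP.05, which it covered.

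The right side of centromere II repeated this picture. The WT peak at 1644268 to 1646902 (height 277.8) began 85 bp past SPBTRNALEU.07, the identical copy of SPBTRNALEU.06, and ended 2 bp beyond SPBTRNAGLU.07. It covered SPBTRNAGLY.08 (407 bp from the edge), SPBTRNALYS.08, SPBTRNAILE.08, SPBTRNAALA.11, SPBTRNAVAL.08 and SPBTRNAGLU.07. SPBTRNATYR.03 lay 336 bp outside its start and SPBTRNAARG.07, the last tRNA gene on this side, 381 bp outside its end. In SUMO-KallR the stretch was a single peak of 43445 bp with its summit at 1645841, 197 bp from SPBTRNAALA.11 (height 531.7), and the WT summit at 1645869 lay 225 bp from the same gene. The 2 summits were thus 28 bp apart, and a wide peak has only 1 summit.

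The remaining WT edges near tRNA genes were of low peaks. On chromosome III a WT peak of 309 bp (1065367 to 1065675, height 6.6) lay between SPCTRNAALA.12, 250 bp away, and SPCTRNAVAL.12, 103 bp away. On I, WT peaks of heights 1.9 and 4.9 ended 216 bp before and began 75 bp after SPATRNAPHE.02, which itself was not covered, and a peak of height 2.1 began 321 bp after SPATRNAARG.02. The lowest height in the WT list is 1.8. On III the outermost tRNA gene, SPCTRNAPHE.05 at 42.7 kb, was 4214 bp from the nearest WT edge.

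The tRNA genes under WT peaks outside the cnt peak carried, for the most part, sequence that also lies under the cnt peak. Of the 35 centromeric tRNA genes outside the WT cnt peaks, 12 shared at least 50% of the stretch made of the gene and 500 bp on each side with sequence under a WT cnt peak, in matches of at least 200 bp and 90% identity. Their longest matches were 575 to 1074 bp at 99.2% to 99.9% identity. 9 of these 12 lay under a WT peak, and the other 3 (SPBTRNAARG.06, SPCTRNAALA.12 and SPCTRNAVAL.12) within 500 bp of an edge. 4 genes had shorter matches, and SPBTRNALYS.07 and SPBTRNALYS.08 of these were under a peak. Of the 19 without a match 5 lay under a WT peak, and 11 under one or within 500 bp of an edge. No arm tRNA gene had a match, and 1 of 115 lay under a WT peak.

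The same can be read from the peaks. The WT peak over SPBTRNAASP.05 matched sequence under the cnt peak of III at 100% identity over all of its 780 bp, and the peak between SPCTRNAALA.12 and SPCTRNAVAL.12 matched sequence under the cnt peak of II at 99.7% over all of its 309 bp. The peaks at 1598839 and 1644268 matched it over 955 bp (43.5% of the peak) and 990 bp (37.6%), with the summit inside the match in both. The peak at 1629794, over SPBTRNAALA.10 and SPBTRNAILE.07, matched over 2746 bp (51.1%), and its summit lay outside that match. For the low peaks at SPBTRNAGLU.06 and SPATRNAVAL.04 the longest matches were 99 bp and 93 bp, and for those at SPATRNAARG.02 and SPATRNAPHE.02 21 bp or none. Reads of 150 bases from such matched stretches can fit more than 1 place, and the part of this in the WT peaks was not tested.

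**Figure D4:**
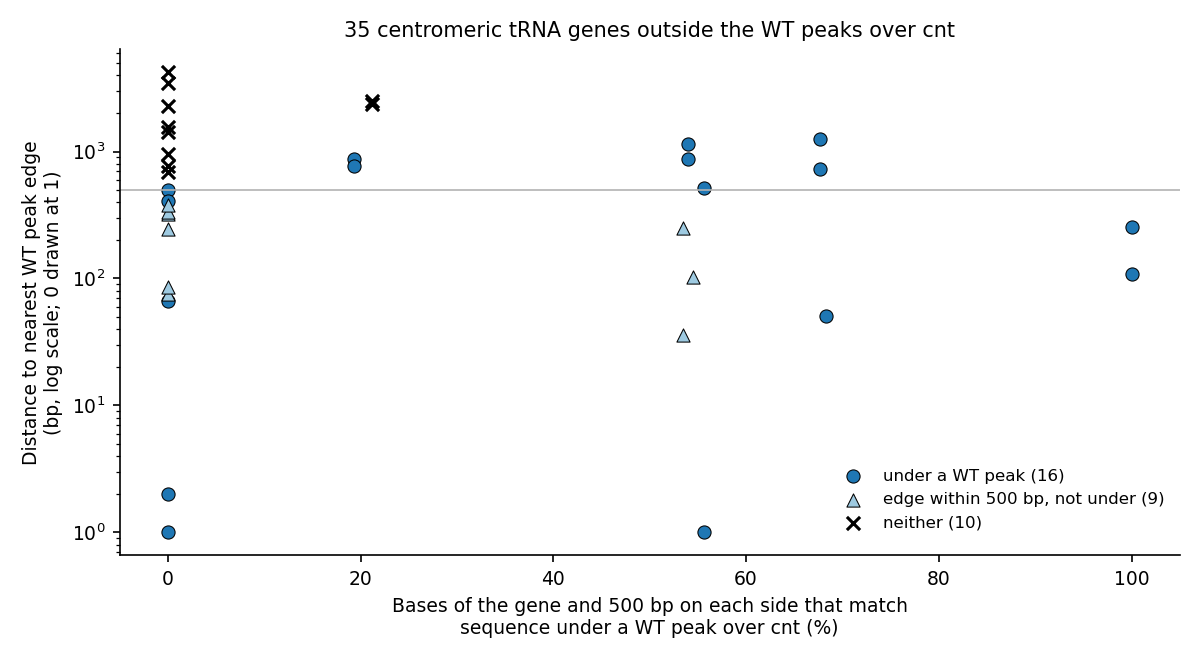
The 35 centromeric tRNA genes outside the WT cnt peaks, with the share of the gene and its 500 bp flanks that matches sequence under a WT cnt peak (x, %) against the distance to the nearest WT edge (y, bp, log scale), and symbols for genes under a peak, near an edge or neither. All 12 genes right of 50% are under a peak or near an edge; at 0% all 3 kinds occur.

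Uniqueness differed strongly between the groups. All 115 arm tRNA genes had 100% unique 150-base sequences around them, that is, each 150-base sequence over the gene occurred once in the genome. Of the 56 centromeric genes, 34 had none that was unique, and 20 of the 21 genes in the WT cnt peaks were under 50%. SPCTRNAGLU.10 was the exception among these, at 100%, and it was under the WT and SUMO-KallR cnt peaks and in the untagged gap. Without the genes under 50%, 17 centromeric tRNA genes were left, of which 1 was under a WT peak (5.88%) and 8 had a WT edge within 500 bp (47.1%). In untagged 15 of the 17 were under a peak (88.2%) and 1 was near an edge (5.88%). This filter took out 20 of the 21 genes in the WT cnt peaks, so repeated sequence and nearness to cnt cannot be told apart here. The share of all genes or windows filtered alike was not counted.

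Of the 19 centromeric tRNA genes not under a WT peak all were under a SUMO-KallR peak, and 18 were also under an untagged peak. The 19th was SPBTRNAARG.06. Coverage in SUMO-KallR alone, without the untagged list, was thus seen at 1 centromeric tRNA gene and at none on the arms. Of all annotated centromeric genes, 100% were under a SUMO-KallR and 94.4% under an untagged peak. The same combinations were not counted for all genes, so these counts are no trait of tRNA genes.

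The single arm tRNA gene under a WT peak was SPATRNAVAL.04 (I, 3710739 to 3710821), 60.4 kb left of the midpoint and so just beyond the limit. The WT peak (3710530 to 3710852, height 5.2) had its summit 119 bp and its end 31 bp from the gene. In SUMO-KallR the peak over this gene was 45089 bp wide with a height of 76.1, and its summit lay 103 bp from the gene, 16 bp from the WT summit. In untagged the gene was under a peak whose start lay 299 bp away and whose summit lay 1125 bp from the gene. Both CFP-Cnp1 strains thus had a summit next to SPATRNAVAL.04. For the other arm tRNA genes the nearest WT summits were 884 bp from SPATRNAMET.03 and 963 bp from SPATRNASER.03, which are neighbours and share that summit (height 2.0), and 2145 bp from SPATRNAPHE.01 (height 2.7).

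Arm tRNA genes had a peak edge within 500 bp more often than arm windows in both dense lists, and about as often as the largest other classes of arm genes. In untagged it was 25 of 115 (21.7%) against 11.1% of windows, and in SUMO-KallR 44 of 115 (38.3%) against 19.2%. The same shares were 20.3% and 38.4% for the longer protein-coding genes, 21.1% and 35.7% for lncRNA genes and 24.2% and 31.8% for the short snoRNA genes. They were higher for 5S rRNA genes (30.6% and 50.0%) and ncRNA genes (43.8% and 50.0%), and also for pseudogenes, snRNA genes and other rRNA genes. The untagged excess over windows depended on the settings: it was 6.09% against 4.91% with peaks closer than 500 bp joined, 6.96% against 6.13% at a limit of 200 bp, and turned to 2.61% against 3.92% at 100 bp. In SUMO-KallR joining the peaks gave 15.7% against 8.78%. In WT it was 1 (0.870%) against 0.0954%. 21 arm tRNA genes had an edge near in both dense lists, 84.0% of the untagged and 47.7% of the SUMO-KallR genes. The same overlap was not counted for other arm genes or windows, so these shares have no background. Median distances to an edge were 4548 bp in untagged (windows 4673 bp), 1016 bp in SUMO-KallR (2252 bp) and 526840 bp in WT (590639 bp). Edges inside the gene were no more frequent than in windows, with 1 of 115 genes in each dense list (0.870%; windows 1.09% in untagged and 1.90% in SUMO-KallR). Read from the edges, 34 of 1834 untagged edges (1.85%), 66 of 3199 SUMO-KallR edges (2.06%) and 2 of 16 WT edges had a tRNA gene within 500 bp, against 0.960% of arm positions.

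Breaks in the peaks were found more often before the gene than after it. In SUMO-KallR, the share of the 115 arm tRNA genes with a position under a peak was 96.5% at 2000 bp before the first base. It fell to 79.1% at 300 and 350 bp before it and was 93.0% at the first base itself. A base free of peaks was found in the 500 bp before the gene for 32 of 115 (27.8%), inside the gene for 8 (6.96%) and in the 500 bp after it for 24 (20.9%), while 13.7% of all 500 bp stretches of the arms hold one. In untagged these were 17 (14.8%), 3 (2.61%) and 11 (9.57%), against 8.11% of stretches, and the lowest point was 88.7% at 400 bp before the gene.

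Other genes had such breaks as well. Before protein-coding genes of the arms, 1378 of 5044 (27.3%) had a free base within 500 bp in SUMO-KallR and 768 (15.2%) in untagged, and their lowest points were 81.9% at 250 bp and 90.1% at 200 bp before the gene. For snoRNA genes it was 16 of 66 (24.2%) in SUMO-KallR. For the 5S rRNA genes, which RNA polymerase III also transcribes, it was 12 of 36 (33.3%), with the lowest point, 66.7%, at 500 bp before the gene. After the gene, the share with a free base in SUMO-KallR was 14.1% for protein-coding, 9.09% for snoRNA and 27.8% for 5S rRNA genes, with tRNA genes (20.9%) between them.

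**Figure D5:**
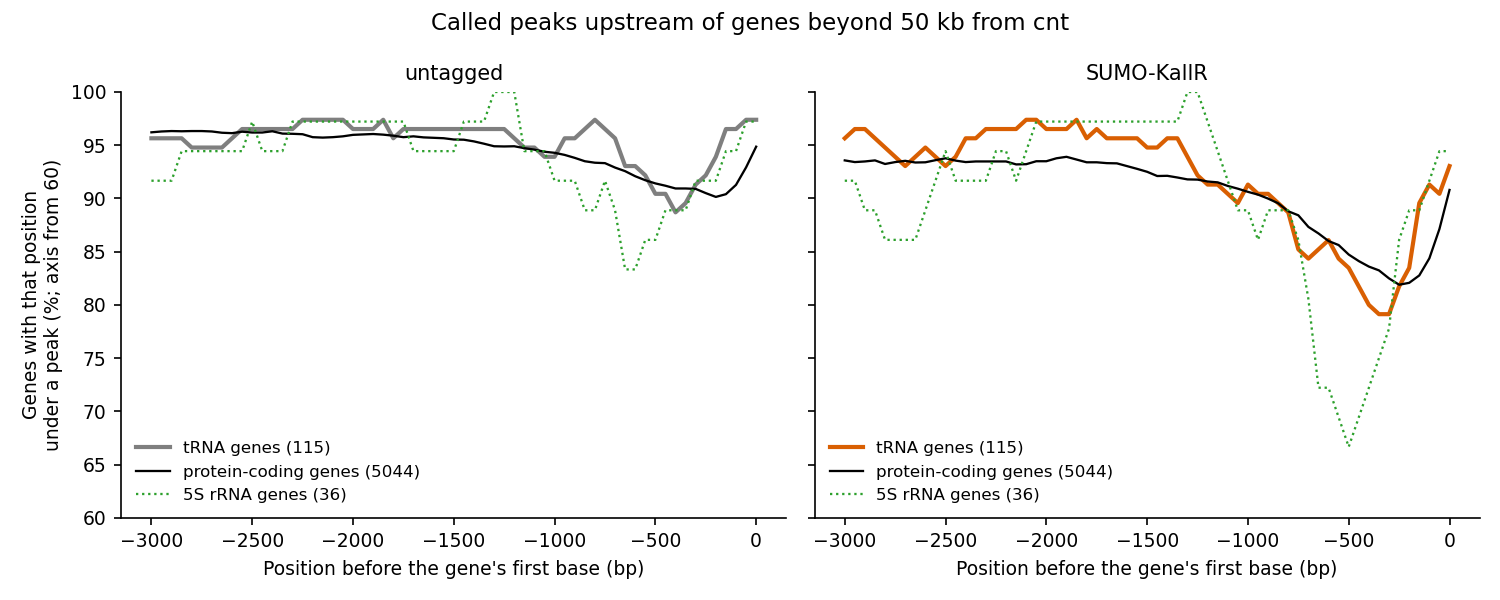
Share of arm genes with the position on the x axis (bp before the first base, in the direction of transcription) under a called peak, in untagged and in SUMO-KallR, for 115 tRNA, 5044 protein-coding and 36 5S rRNA genes; the y axis (%) starts at 60. All 3 classes have a dip within 1 kb before the gene in both lists, deeper in SUMO-KallR (79.1% for tRNA genes, 81.9% for protein-coding genes).

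7 arm tRNA genes had no base under a SUMO-KallR peak. SPATRNAALA.01 lay in a gap of 1268 bp, 507 bp from the edge, and SPATRNATHR.04 in one of 584 bp, 39 bp from it, and these were also the 2 arm tRNA genes outside the untagged peaks, in gaps of 1060 and 540 bp. The other 5 were under an untagged peak. They were SPATRNAPRO.02 (gap of 664 bp), SPATRNATHR.01 (361 bp), SPATRNAILE.02 (573 bp), SPBTRNAGLN.02 (318 bp) and SPBTRNATRP.03 (189 bp), all between 51 and 149 bp from an edge. SPBTRNALYS.06 was partly in a gap of 644 bp. The gaps were narrow, so that with 300 bp added on each side 114 of 115 genes met a SUMO-KallR peak. The share of all arm genes widened alike was not counted. Of 1597 SUMO-KallR gaps on the arms 8 (0.501%) held a tRNA gene or part of one.

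Summits fell within few arm tRNA genes. In untagged the nearest were inside SPBTRNAGLU.08 (height 7.2, a peak of 623 bp), 104 bp from SPATRNAASP.01 (9.2), 253 bp from SPCTRNAGLU.09 (21.3) and 376 bp from SPBTRNAASN.03 (9.7). In SUMO-KallR they were inside SPATRNALYS.03 (5.3), SPBTRNAGLU.08 (4.1) and SPBTRNASER.05 (18.5) and 38 bp from SPCTRNAGLN.05 (17.2). SPBTRNAGLU.08, at 4107639 to 4107710 on II, had a summit inside the gene in both lists, at 4107663 and 4107683, in a short peak in each. The median distance from arm tRNA gene to summit was 4907 bp in untagged (windows 4461 bp) and 1969 bp in SUMO-KallR (2390 bp).

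The 5S rRNA genes, snu6, srp7 and rrk1, a list chosen with earlier results known, were all on the arms, and none lay under a WT peak. Of 36 5S rRNA genes 36 were under an untagged and 35 under a SUMO-KallR peak, with an edge within 500 bp for 11 (30.6%) and 18 (50.0%). srp7, the RNA of the signal recognition particle, and rrk1, the RNA of RNase P, lay whole under untagged and SUMO-KallR peaks. snu6, the U6 spliceosomal RNA, was under an untagged peak and in a SUMO-KallR gap, 77 bp from its edge.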

How the data were processed

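Before mapping by Bowtie2 to ASM294v2 and the calibrator genome SacCer3, the authors trimmed the reads (Cutadapt), and afterwards they took out duplicates and reads that were unmapped or from rDNA or mitochondria (Samtools). In MACS3 they brought ChIP and control to equal depth, applied the spike-in calibration and ran bdgpeakcall on every library separately. No tool version and no peak cutoff is given in the sources used here. The labels name a later, stricter background removal without details. The lists as deposited give start, end, summit and a score per peak, read by MACS convention as 10 times the highest −log10(p), and no header states this. Heights depend on depth, so they were ranked within a list only. The depth behind a peak is unknown from the lists, and no counting interval is given. Input libraries were not used here.

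Genes and sequences came from RefSeq ASM294v3, and all peaks ended within its chromosomes. Positions of both builds were used together, and whether the chromosomes are the same base by base was not checked, so distances of a few bases rest on that. The members and lists were chosen with earlier results of these data known. Overlap meant at least 1 bp, and near meant at most 500 bp from the gene body, with a distance of 0 where an edge lay inside the gene. The background was counted over all annotated genes and, base by base, over all 73 bp windows. tRNA genes under 1 peak are not independent of each other. Uniqueness is the share of 150-base sequences overlapping a gene that occur once in the genome. Matches used BLAST+ 2.17.0. The named genes were the first and last tRNA gene on each side of each centromere and those nearest the ends of the cnt peak, tRNA genes with a WT edge near, arm tRNA genes under a WT peak, those under no untagged or no SUMO-KallR peak, and the 4 arm genes nearest a summit in each list. Alternatives were 2 height floors, joined peaks, bands of 25 and 100 kb, unique genes only, clusters counted once, whole or extended genes and other limits for near. The 100 bp limit was added after the data were seen. Scripts were tested on simulated data. Calculations used pandas 2.3.3 and NumPy 2.4.6 under Python 3.11.15, intervals SciPy 1.17.1, and figures matplotlib 3.10.9.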

Additional observations from a re-analysis of the deposited data

How the results depend on the processing

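No paired analysis was possible because each strain has 1 library, and no replicate could be left out for the same reason. A share counts as moved when it left the exact 95% binomial interval of its reported value, and a median distance when it changed by more than 1.5 times. Of 114 alternative values for the shares of tRNA genes under a peak or near an edge, 80 stayed within this limit and 34 moved; of 173 others (covered bases, distances, edges read the other way), 116 stayed and 57 moved. A common height floor of 2.0 moved none of the shares. The untagged floor of 48.3 left 49 untagged, 29 WT and 38 SUMO-KallR peaks: the shares under a peak became 21.4% (centromeric) and 0% (arms) in untagged, 85.7% and 2.61% in SUMO-KallR, and 0% on the arms in WT, and the shares near an edge 1.79% and 0% in untagged, 0.870% on the arms in SUMO-KallR and 0% on the arms in WT. Calls on the arms in the dense lists thus rest mostly on peaks under 48.3. This floor sets untagged heights against the other lists, although heights depend on depth. The shares of all genes under a peak at this floor were not counted. With peaks closer than 500 bp joined, the shares near an edge were 6.09% (untagged, arms; windows 4.91%), 15.7% (SUMO-KallR, arms; windows 8.78%) and 0% (SUMO-KallR, centromeric). A band of 25 kb gave 87.8% under a WT peak (all genes there 89.4%), and one of 100 kb left no arm tRNA gene under (0%) or near (0%) one. Without genes in repeated sequence, 5.88% of centromeric genes were under a WT peak, and 5.88% in untagged and 0% in SUMO-KallR were near an edge. With clusters counted once, untagged centromeric shares were 73.7% under a peak and 36.8% near an edge (windows 22.4%, but a cluster can be far wider than a window). With 300 bp on each side, 100% of arm tRNA genes met an untagged and 99.1% a SUMO-KallR peak, and the share of all genes widened alike was not counted. At a limit of 200 bp, shares near an edge were 10.7% and 6.96% (untagged, centromeric and arms; windows 12.4% and 6.13%), 17.9% (WT, centromeric; 14.5%) and 24.3% (SUMO-KallR, arms; 10.7%). At 1000 bp they were 37.5% (untagged, centromeric; 32.5%), 48.2% (WT, centromeric; 34.8%) and 49.6% (SUMO-KallR, arms; 30.0%). At 100 bp, chosen after seeing the data, they were 8.93% and 2.61% (untagged; 7.79% and 3.92%), 14.3% (WT, centromeric; 9.14%), 0% (SUMO-KallR, centromeric) and 11.3% (SUMO-KallR, arms; 6.81%). On the untagged arms the excess over windows was thus seen at 500 bp and not at 100 bp, and on the SUMO-KallR arms at all 4 limits. The cause of these moves was not tested beyond what each setting changes by construction.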

Other observations

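tRNA genes with the same sequence differed in peak calls, also among copies up to 50 kb from a cnt midpoint. Of the 9 copies of SPATRNAALA.01, 7 are centromeric and 6 of those were under a WT peak. Of the 8 copies of SPATRNAVAL.04, 7 were under a WT peak, and the one that was not, SPCTRNAVAL.12, lay 103 bp from one. All 6 copies of SPATRNAILE.03 are centromeric, and all were under WT and SUMO-KallR peaks. Of the 8 copies of SPATRNAARG.02 6 are centromeric, but 2 were under a WT peak, SPCTRNAARG.12 and SPCTRNAARG.13, both inside the cnt peak of III. Of the 8 copies of SPATRNAGLY.01, the 2 centromeric ones were under a WT peak and the 6 on the arms were not. The 6 copies of SPATRNAPRO.03, the 4 of SPBTRNAHIS.01 and the 4 of SPATRNAMET.01 all lie on the arms, and none was under a WT peak. The families of SPATRNASER.02, SPATRNALYS.04, SPATRNAPHE.01 and SPBTRNAASN.01 have 1, 2, 2 and 1 centromeric copies, and none of their copies was under one. All centromeric copies were under a WT peak in the families of SPATRNATHR.01 (2), SPATRNAGLU.03 (3) and SPATRNAGLU.01 (2). In those of SPATRNAASP.01 and SPBTRNALEU.06 it was 2 of 3 and 3 of 4. Of all annotated centromeric genes, 51.2% were under a WT peak. These families were chosen after the calls were seen, and their copies within repeats are not independent.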
